A study of Mus musculus with 12 samples.

Results

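The transcripts that change in wild-type mouse muscle after a single run to exhaustion were measured by comparing 3 arrays titled as taken after exercise with 3 arrays titled as taken before it. These are 6 of the 12 arrays of a series on the nuclear receptor ERRα. Each gene was represented by the probeset of 1 gene symbol that had the highest mean over all arrays, which gave 22180 genes. The 13308 genes above the lowest 40% of mean values were tested.

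The mice were wild-type FVB animals, labelled male and aged 2 to 3 months, and RNA came from the gastrocnemius, a mixed and mostly fast calf muscle. One group was sedentary, and the other ran on a treadmill until exhausted and was sampled 2 h later. The remaining arrays hold ERRα-null mice (Esrra deleted) of the same strain, also 3 sedentary and 3 sampled 2 h after the run, and are used here for the spread between replicates and for the comparison of genotypes. The labels call the arrays of a group biological replicates. The whole muscle was sampled at 1 time point, so that a change in cell composition and a change of RNA per cell cannot be told apart. The exercise state was taken from the titles. Another label, the source name, gives the wild-type arrays taken after the run as taken before it, and the opposite for the sedentary ERRα-null arrays. Hspa1b, a heat shock gene, lay between 6.53 and 6.63 (log2) on the arrays titled as sedentary wild type and between 10.83 and 11.21 on those titled as exercised. In ERRα-null muscle Hspa1b lay between 6.73 and 7.32 on the arrays titled as sedentary and between 9.17 and 10.74 on those titled as exercised. Hspa1b is also among the responses described below, so that its values are no independent check of the titles.

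A bout of hard running depletes ATP and glycogen, raises calcium and cyclic AMP in the fibre, heats and stretches it, and raises adrenaline and glucocorticoids in blood. In muscle these signals are known to switch on early transcription factors within minutes to hours, then coactivators such as PGC-1α, heat shock proteins and genes that shift fuel use from glucose to fat. Structural and mitochondrial transcripts are abundant and long-lived, and their levels follow training more than a single run.

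More genes rose than fell among those that passed the test. Of the 13308 genes, 296 rose and 161 fell in limma's test at an adjusted p under 0.05, which is 2.22% higher, 1.21% lower and 3.43% in either direction. The median change was 0.73 (log2) among the genes that rose and -0.55 among those that fell, and 90 rose and 13 fell by more than 2-fold. The median over all tested genes was -0.01, and 2145 genes had an unadjusted p under 0.05, of which 999 were higher. The arrays of the groups did not overlap for any of the 457 called genes, and over all tested genes they did not overlap for 21.0%. After median centring of the arrays the counts were 289 higher and 88 lower. The adjusted p was 0.0491 for the last gene called and 0.0501 for the first not called.

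**Figure D1:**
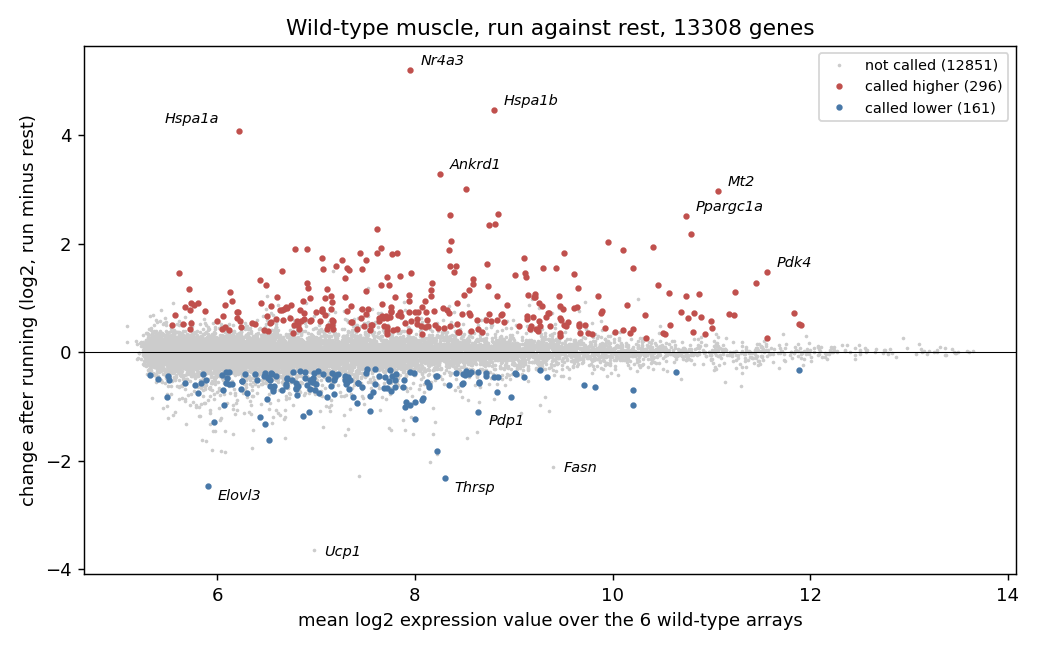
Change of each gene after running (log2, run minus rest) against its mean log2 value over the 6 wild-type arrays, for 13308 genes. Red points are the 296 genes called higher and blue points the 161 called lower; the largest rise was that of Nr4a3 at 5.20, and grey points such as Ucp1 and Fasn moved far but varied among replicates and did not pass.

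The arrays matched the tissue label and differed in material from other tissues. Fibre transcripts were at the top of the range on every wild-type array, with Acta1, the skeletal actin, at 13.58 to 13.67 and Myh4, the fast myosin heavy chain, at 13.54 to 13.63. Ucp1 of brown fat was at 10.82 and 10.93 on sedentary replicates 2 and 3 and at most 5.52 on the other 4 arrays, and Cd79a of B cells was at 7.97 and 7.78 on the same pair and at most 5.37 elsewhere. Alb of liver ran from 6.46 to 12.82, highest on sedentary replicate 1. The neutrophil transcript Retnlg was at 6.68 on exercised replicate 2 and at most 3.98 elsewhere, and the mean of 6 endothelial markers was 7.58 on that array and at least 8.27 on the others. Xist, the X-inactivation RNA of females, was at 7.90 on exercised replicate 3 and at most 4.30 on the others, although all mice are labelled male. Without sedentary replicates 2 and 3 the counts were 109 higher and 123 lower, of which 104 and 20 were called with all arrays. Without exercised replicate 3 they were 232 and 107. With scores for liver, fat and lymphocytes per array as covariates they were 57 and 11.

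The genes described below include 96 called genes, and 72 of these kept their call when any 1 wild-type array was left out. The following 18 kept it in every setting in which they were tested, which was all 18 settings for 16 of them and all but the stricter filter for Hspa1a and Elovl3: Nr4a3, Ppargc1a, Pdk4, Ucp3, Hspa1a, Hspa1b, Hsp90aa1, Hspb1, Srxn1, Slc38a2, Xirp1, Klhl40, Tnfrsf12a, Pvr, Musk, Zbtb16, Acvr1b and Elovl3. Slc38a2, Klhl40, Pvr and Acvr1b were named outside the rule for naming genes that is given with the processing. None of the 96 changed direction in any setting, but most settings could not have changed it. The groups did not overlap for any called gene, so that leaving out arrays could not reverse a direction. Settings that changed only the filter, variance model or block left the estimate as it was. Elovl3 is itself part of the fat score used as a covariate. The tissue scores ended the call of 72 of them, while the size of the change stayed within 1.5 times for 90, with a median ratio of 1.01. It was smaller by more than that for Irs1, Nr4a2 and Pck1. In what follows, ± is the standard error of the model for changes, and each adjusted p is limma's. List members were chosen with earlier results of these data known, so that ranks among lists partly reflect that choice. Over all tested genes 2.22% were called higher and 1.21% lower.

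The largest rise belonged to an orphan nuclear receptor of the NR4A family, whose genes are switched on by cyclic AMP through the factor CREB. Nr4a3 was at 5.30, 5.52 and 5.24 on the sedentary arrays and at 10.45, 10.58 and 10.63 on the exercised arrays. It went from near the lower limit of tested values to a high level on every exercised array, a rise of 36.7-fold (log2 5.20 ± 0.22, adjusted p = 2.18e-07). Nr4a2 was at 6.64, 6.42 and 6.53 before and at 8.29, 8.27 and 8.50 after the run (1.82 ± 0.40, adjusted p = 0.0283). The groups did not overlap, but this call was lost without any 1 of the 6 arrays, with adjusted p from 0.0543 to 0.0934. Nr4a1 was at 10.18, 10.11 and 10.39 before and at 11.03, 12.11 and 10.66 after, and did not pass (1.04 ± 0.37, adjusted p = 0.178). Its arrays did not overlap, and its exercised arrays were spread over more than 1 log2 unit.

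Sik1, a salt-inducible kinase that restrains CREB coactivators, was at 7.79, 7.49 and 7.62 before and at 9.63, 10.31 and 10.05 after the run. It rose 5.15-fold (2.36 ± 0.26, adjusted p = 3.11e-04). Ppp1r3c, which targets a phosphatase to glycogen, rose by 1.24 ± 0.14, and Crem, a repressor and activator of the CREB family, by 0.64 ± 0.12 (adjusted p = 0.0119). Without sedentary replicate 3 the call of Crem was lost (adjusted p = 0.0580). Of the 20 tested genes of a list of cyclic AMP and CREB targets, 6 rose and 1 fell, with a median change of 0.15. The 6 became 4 without sedentary replicate 3, and 1 with the tissue scores.

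The sequences upstream of Nr4a3 and of Ppargc1a, the gene of PGC-1α, are shown because both are textbook CREB targets and rose on every exercised array. They are the 250 bases before the start site in RefSeq (GRCm38.p6), in the direction of transcription, at chr4:48045055-48045304, plus strand and chr5:51567726-51567975, minus strand. Capitals mark TGACG on either strand (CGTCA on the other), the core of the cyclic AMP response element.
Nr4a3: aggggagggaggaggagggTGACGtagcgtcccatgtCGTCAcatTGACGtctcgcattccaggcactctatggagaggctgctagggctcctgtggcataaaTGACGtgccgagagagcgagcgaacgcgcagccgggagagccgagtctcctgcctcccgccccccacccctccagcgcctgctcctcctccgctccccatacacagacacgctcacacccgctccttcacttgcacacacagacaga
Ppargc1a: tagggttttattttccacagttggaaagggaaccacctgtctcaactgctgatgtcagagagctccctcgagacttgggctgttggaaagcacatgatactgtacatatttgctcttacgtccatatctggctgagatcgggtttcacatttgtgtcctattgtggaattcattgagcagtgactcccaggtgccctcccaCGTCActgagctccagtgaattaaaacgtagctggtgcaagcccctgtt
Nr4a3 held 4 matches, which began 231, 213, 205 and 147 bases before the start site, and Ppargc1a held 1, at 49 bases. Of the 32851 RefSeq promoters, 17.8% held at least 1 match in this window, and the share was 24.9% for promoters of tested genes, 34.1% for those of the genes that rose and 20.1% for those of the genes that fell. Among other genes described here, Nr4a2 held 4 matches and Ppp1r3c, which rose, held 0. Nr4a1, which did not pass, also held 4. The match is a description of letters and was not tested as a site.

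PGC-1α, the coactivator that drives mitochondrial biogenesis together with ERRα, was among the strongest responders. Ppargc1a was at 9.67, 9.44 and 9.36 before and at 12.05, 11.80 and 12.15 after the run. The lowest exercised array stood more than 2 log2 units above the highest sedentary one, and the rise was 5.68-fold (2.51 ± 0.12, adjusted p = 7.08e-07). Its partners moved less. Ppard, the fatty acid receptor PPARδ, rose by 0.72 ± 0.08 (adjusted p = 4.46e-04), from 7.92 to 8.10 before to 8.67 to 8.74 after. Esrra itself was at 7.61, 7.57 and 7.41 before and at 7.47, 7.63 and 7.41 after, and did not pass (-0.03 ± 0.11, adjusted p = 0.936). The Esrra ranges lay on top of each other. Of 22 tested coactivators and metabolic nuclear receptors, 2 rose (Ppargc1a and Ppard) and 1 fell (Nr1d1), with a median of 0.02.

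**Figure D2:**
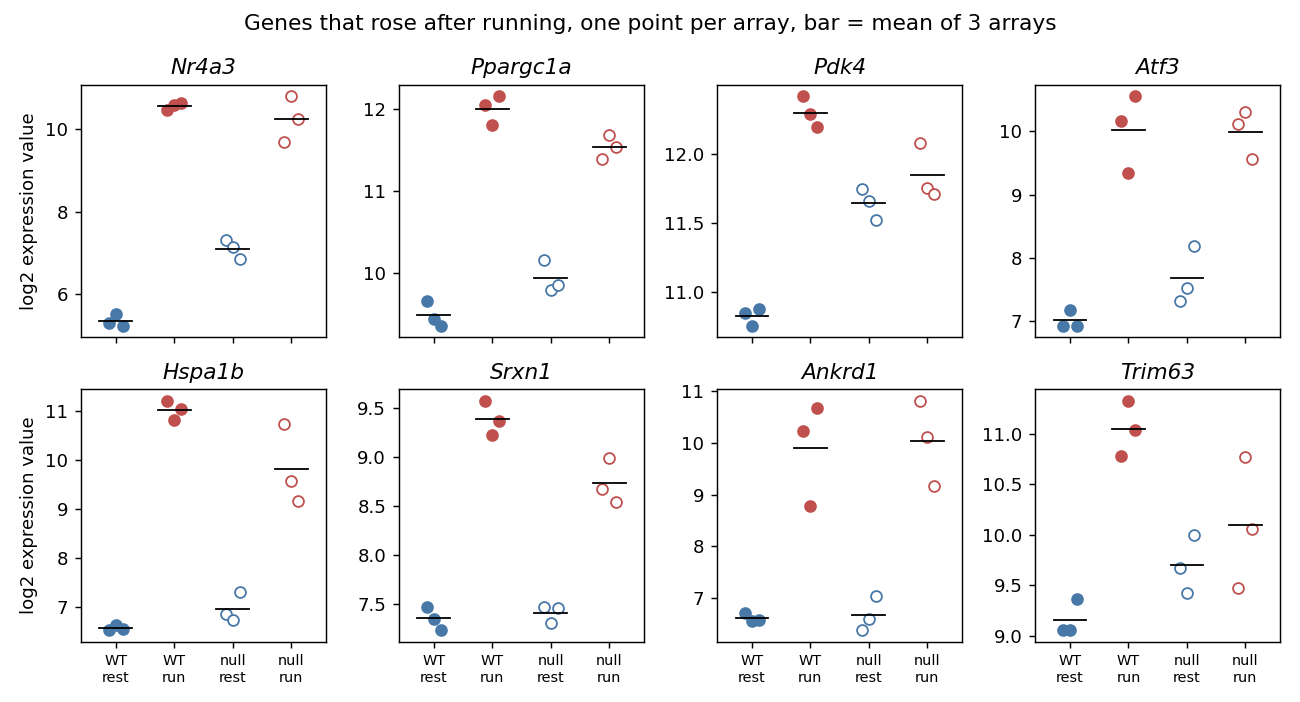
Log2 expression values of 8 genes that rose in wild type, with 1 point per array and a bar at the mean of 3 arrays, for wild-type (filled) and ERRα-null (open) muscle at rest (blue) and after running (red). In wild type the groups do not overlap for any of the 8 genes, and Pdk4 starts higher in ERRα-null muscle, at 11.52 to 11.75 against 10.76 to 10.88.

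Genes that gate fuel entry into mitochondria changed in opposite directions. Pdk4, the kinase that shuts off pyruvate dehydrogenase, was at 10.85, 10.76 and 10.88 before and at 12.42, 12.29 and 12.19 after the run, a rise of 2.77-fold (1.47 ± 0.10, adjusted p = 9.75e-06). Pdp1, the phosphatase that switches the same enzyme back on, was at 9.21, 9.12 and 9.23 before and at 8.34, 7.84 and 8.10 after, and fell by 1.09 (± 0.13, adjusted p = 5.93e-04). Neither gene had overlapping groups. Ucp3, an uncoupling protein of muscle mitochondria, rose 2.91-fold, from 8.60 to 8.74 before to 9.98 to 10.32 after (1.54 ± 0.16, adjusted p = 1.52e-04). These 3 were the called genes among 28 tested in a list of the switch from glucose to fat, whose median was -0.05.

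Glucose and lactate handling gained 4 called genes of 29 tested, with a median of 0.04, and none was called higher with the tissue scores. Hk2, the hexokinase that traps glucose in the fibre, was at 10.13, 10.09 and 9.87 before and at 11.27, 11.10 and 10.97 after, a rise of 1.09 ± 0.14 (adjusted p = 0.00118). Slc16a1, the lactate carrier MCT1, rose by 0.85 ± 0.12 (adjusted p = 0.00188) with no overlap between 8.85 to 9.19 and 9.83 to 10.01. Slc2a1, the glucose transporter GLUT1, rose by 0.83 ± 0.10 (adjusted p = 8.22e-04), and its second probeset moved by 0.09. Slc2a4, the insulin- and contraction-regulated transporter GLUT4, lay at 10.53 to 10.58 before and at 10.54 to 10.59 after. Its change was 0.01 ± 0.06 (adjusted p = 0.942), with overlapping groups. None of 41 respiratory chain subunits (median 0.01) and none of 18 tricarboxylic acid cycle genes (median -0.04) was called, and their changes ran from -0.13 to 0.40 and from -0.09 to 0.09.

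Early transcription factors formed one of the densest groups of rises. Of 32 tested members of the AP-1, EGR and related families, 12 rose and none fell, with a median of 0.51. The share called higher over all tested genes was 2.22%. Atf3, a stress-induced factor of the ATF family, was at 6.93, 7.18 and 6.93 before and at 10.17, 9.35 and 10.55 after the run, a rise of 8.07-fold (3.01 ± 0.30, adjusted p = 1.39e-04). Fos was at 6.12, 5.73 and 6.02 before and at 8.29, 7.74 and 7.55 after (1.90 ± 0.30, adjusted p = 0.00471). In both, every exercised array lay more than 1 log2 unit above every sedentary array. Its AP-1 partner Jun rose by 1.19 ± 0.18 (adjusted p = 0.00282), from 8.92 to 9.17 before to 9.97 to 10.64 after. Egr1, a zinc finger factor of serum and contraction responses, was at 6.10, 6.27 and 6.87 before and at 8.59, 7.68 and 7.72 after (1.58 ± 0.28, adjusted p = 0.00941). Sedentary replicate 3 was the highest of its group for Egr1 and still lay below every exercised array. Csrnp1 (1.33 ± 0.14), the antiproliferative Btg2 (1.53 ± 0.23), the small MAF factor Mafk (1.40 ± 0.13) and Klf10 (1.27 ± 0.24) rose as well. The call of Klf10 was lost without sedentary replicate 2 (adjusted p = 0.05) or exercised replicate 1 (adjusted p = 0.0567). The count of 12 was between 8 and 11 over the 6 fits that leave out 1 wild-type array. The count was 8 without sedentary replicate 1 or sedentary replicate 3, and 3 with the tissue scores.

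Heat shock proteins, the chaperones that refold damaged proteins and that the factor HSF1 induces, held the largest share of called members. Of 33 tested chaperones and cochaperones, 18 rose and none fell, with a median of 0.38, against 2.22% of all tested genes called higher. Hspa1b, an inducible HSP70, was at 6.53, 6.63 and 6.55 before and at 11.21, 10.83 and 11.05 after the run, a rise of 22.0-fold (4.46 ± 0.30, adjusted p = 1.08e-05). Hspa1a was at 4.34, 4.11 and 4.11 before and at 8.51, 8.03 and 8.23 after, a rise of 4.07 ± 0.21 (adjusted p = 1.05e-06). Its sedentary values lay below the limit for testing, a mean of 5.32, so that it was tested through its exercised arrays alone, and counted from that limit it was at least 7.65-fold higher. The groups were separated by more than 3 log2 units for each gene. The transcripts of Hspa1a and Hspa1b are nearly identical, and signal can be shared between their probesets, so that each single value is uncertain.

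Among the other families, Hsp90aa1, the inducible HSP90, was at 6.99, 7.47 and 7.24 before and at 8.74, 8.81 and 8.54 after (1.46 ± 0.14, adjusted p = 1.10e-04). The small heat shock protein Hspb1 was at 8.21, 8.47 and 8.22 before and at 9.74, 9.68 and 9.73 after (1.42 ± 0.12, adjusted p = 7.24e-05), and its second probeset rose by 0.72. The exercised arrays of Hspb1 lay within 0.1 of each other. Dnajb1, the HSP40 that hands substrates to HSP70, rose by 1.19 ± 0.20 (adjusted p = 0.00590), Hsph1 (HSP110) by 1.04 ± 0.13, and the cochaperone Bag3 by 0.68 ± 0.07 (adjusted p = 1.39e-04). The constitutive Hspa8 and the lens and muscle crystallin Cryab, which were already at 11.58 to 11.71 and 11.56 to 11.68, rose by 0.50 ± 0.06 and 0.51 ± 0.07. The count of 18 was 11, 12 and 12 without sedentary replicate 3, sedentary replicate 2 and exercised replicate 1, and 6 with the tissue scores.

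Heat shock elements are inverted repeats of GAA, and the upstream sequences of Hspb1 and Hspa1a are shown for them. The 250 bases before each start site are at chr5:135887669-135887918, plus strand and chr17:34972157-34972406, minus strand (RefSeq, GRCm38.p6). Capitals mark GAANNTTC or TTCNNGAA, which read the same on both strands and may overlap each other.
Hspb1: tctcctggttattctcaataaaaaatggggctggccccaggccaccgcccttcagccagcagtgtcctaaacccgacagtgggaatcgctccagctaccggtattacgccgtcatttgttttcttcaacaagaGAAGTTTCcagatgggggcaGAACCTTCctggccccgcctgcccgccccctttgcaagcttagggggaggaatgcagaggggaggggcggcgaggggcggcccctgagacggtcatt
Hspa1a: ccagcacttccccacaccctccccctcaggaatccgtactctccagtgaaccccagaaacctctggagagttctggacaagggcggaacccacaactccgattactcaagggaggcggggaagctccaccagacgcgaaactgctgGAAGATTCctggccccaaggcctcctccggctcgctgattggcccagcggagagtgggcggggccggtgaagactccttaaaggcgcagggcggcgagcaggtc
Hspb1 held 2 matches, 117 and 97 bases before the start site, and Hspa1a held 1, at 104 bases. The window of Hspa1b differed from that of Hspa1a at 3 of 250 bases. Hsph1 held 1 match, whereas Bag3 and Dnajb1, which also rose, held 0. A match was found in 12.8% of all RefSeq promoters, in 9.9% of those of tested genes, in 15% of those of genes that rose and in 6.7% of those of genes that fell.

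Antioxidant genes under the factor NRF2 rose in part. Of 21 tested members, 5 rose and 1 fell, with a median of 0.03. The 5 became 3 without sedentary replicate 3, exercised replicate 1 or exercised replicate 2, and 1 with the tissue scores. Srxn1, sulfiredoxin, which repairs oxidised peroxiredoxins, was at 7.47, 7.35 and 7.23 before and at 9.58, 9.22 and 9.37 after the run (2.04 ± 0.12, adjusted p = 4.73e-06). Hmox1, heme oxygenase, was at 6.11, 6.36 and 6.11 before and at 7.97, 8.11 and 7.68 after (1.73 ± 0.19, adjusted p = 3.00e-04). Neither overlapped, and both were raised by more than 1 log2 unit on each exercised array. Txnrd1, thioredoxin reductase, rose by 0.82 ± 0.10 (adjusted p = 6.47e-04). Nfe2l2, which encodes NRF2, rose by 0.71 ± 0.14 (adjusted p = 0.0190) and lost the call without sedentary replicate 3 or exercised replicates 1 or 2 (adjusted p from 0.0664 to 0.0769). Gsta4, a glutathione transferase, fell by 0.57 (± 0.13, adjusted p = 0.0326) and lost the call in 4 of the 6 fits without 1 wild-type array, those without sedentary replicates 2 or 3 or exercised replicates 1 or 2.

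The upstream sequence of Srxn1 is shown for TGANTCA, the core shared by AP-1 sites and by many NRF2 elements. It is at chr2:152105274-152105523, plus strand (RefSeq, GRCm38.p6), and capitals mark the motif, which reads the same on both strands.
Srxn1: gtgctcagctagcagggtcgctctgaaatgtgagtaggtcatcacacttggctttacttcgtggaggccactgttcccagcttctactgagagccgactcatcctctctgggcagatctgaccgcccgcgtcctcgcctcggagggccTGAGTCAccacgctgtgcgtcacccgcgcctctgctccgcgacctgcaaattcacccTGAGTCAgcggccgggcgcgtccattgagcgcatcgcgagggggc
It held 2 matches, 102 and 45 bases before the start site, whereas Txnrd1 and Nfe2l2, which also rose, held 0. The motif was found in 6.75% of all RefSeq promoters, in 4.69% of those of tested genes, in 8.12% of those of genes that rose and in 2.23% of those of genes that fell.

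Metallothioneins are small proteins that bind zinc and are induced by metals and by glucocorticoids. Mt2 was at 9.32, 9.50 and 9.93 before and at 12.63, 12.36 and 12.65 after the run, a rise of 7.80-fold (2.96 ± 0.28, adjusted p = 1.27e-04). Mt1 was at 8.67, 8.80 and 9.35 before and at 11.02, 10.85 and 11.04 after (2.03 ± 0.21, adjusted p = 1.54e-04). Sedentary replicate 3 was the highest of its group for both genes, and the groups remained more than 1 log2 unit apart. Of the 7 tested metallothionein and zinc transport genes 3 rose, with a median of 0.44, and none was called higher with the tissue scores.

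Genes of the integrated stress response and the unfolded protein response rose in 8 of 32 tested members and fell in none, with a median of 0.20. The 8 became 6 to 8 when 1 wild-type array was left out, and 0 with the tissue scores. Atf4, the factor that restores amino acid supply, was at 9.07, 9.08 and 8.85 before and at 9.63, 9.69 and 9.64 after the run (0.65 ± 0.07, adjusted p = 3.11e-04). Ppp1r15a (GADD34), which ends the translational block, rose by 0.85 ± 0.10, and the endoplasmic reticulum chaperones Hspa5 (BiP) and Dnajb9 by 0.60 ± 0.08 and 0.73 ± 0.11. The groups did not overlap for any of these 4 genes. Ddit3 (CHOP) and Trib3, markers of prolonged stress, did not pass, with changes of 0.07 ± 0.10 and 0.04 ± 0.10. Outside the list, the amino acid carrier Slc38a2 was at 9.52, 9.43 and 9.37 before and at 11.64, 11.32 and 11.19 after (1.94 ± 0.16, adjusted p = 4.06e-05). Impact, which restrains the amino acid sensor GCN2, rose 5.04-fold (2.33 ± 0.21, adjusted p = 9.80e-05), from 7.52 to 7.63 before to 9.71 to 10.31 after.

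Several genes known to respond to mechanical load rose. Ankrd1, a titin-binding ankyrin repeat protein induced by stretch, was at 6.71, 6.55 and 6.58 before and at 10.23, 8.78 and 10.66 after the run, a rise of 9.70-fold (3.28 ± 0.45, adjusted p = 0.00155). Exercised replicate 2 was the lowest of its group by more than 1 log2 unit and still lay above the sedentary arrays. Xirp1, an actin-binding repair protein of the Z-disc region, was at 9.86, 9.66 and 9.59 before and at 12.21, 11.47 and 11.93 after (2.17 ± 0.19, adjusted p = 6.09e-05). Flnc, the muscle filamin, rose by 1.10 ± 0.15, and Klhl40, which stabilises thin filament proteins, by 1.82 ± 0.20 (adjusted p = 3.40e-04). Rrad, a small GTPase that inhibits calcium channels, was at 6.36, 6.84 and 6.23 before and at 9.80, 7.90 and 8.56 after (2.28 ± 0.42, adjusted p = 0.0119). Its call was lost without sedentary replicate 3 (adjusted p = 0.0575). The Z-disc protein gene Csrp3 rose by 1.04 ± 0.23 (adjusted p = 0.0272) and lost the call without sedentary replicates 2 or 3 or exercised replicates 1 or 3 (adjusted p from 0.0604 to 0.0886). Tcap, the titin cap, fell by 0.34 (± 0.06, adjusted p = 0.0131) and lost the call without sedentary replicate 2 (adjusted p = 0.0605). Of 26 tested stretch-responsive sarcomere genes 6 rose and 1 fell, with a median of 0.10. The 6 were 3 without sedentary replicate 3, 7 without sedentary replicate 1 and 1 with the tissue scores. None of 13 fast and 13 slow contractile protein genes was called, with medians of 0.03 and 0.10.

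Several cell surface and growth genes moved with them. Tnfrsf12a, the receptor of the cytokine TWEAK, was at 7.34, 7.02 and 6.91 before and at 10.03, 9.26 and 9.56 after the run (2.53 ± 0.20, adjusted p = 4.06e-05). Pvr, an adhesion receptor of the nectin family, was at 6.66, 6.60 and 6.83 before and at 8.84, 8.41 and 8.58 after (1.91 ± 0.15, adjusted p = 4.06e-05). Both were above every sedentary array on each exercised array. Hbegf, a ligand of the EGF receptor, rose by 1.82 ± 0.25 (adjusted p = 0.00163), and Adamts9, a secreted metalloprotease, by 1.83 ± 0.21 (adjusted p = 4.21e-04). Otud1, a deubiquitinase, was at 7.44, 7.80 and 7.47 before and at 10.69, 9.26 and 10.41 after (2.55 ± 0.44, adjusted p = 0.00804). Rcan1, the inhibitor of calcineurin that calcineurin induces, rose by 1.55 ± 0.20 (adjusted p = 0.00106), from 9.17 to 9.59 before to 10.73 to 11.27 after. Of 25 tested calcineurin and calcium signalling genes it was 1 of 2 that rose.

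In the list of myogenic factors and satellite cell genes 4 of 21 tested members rose, with a median of 0.04. Of these lists of calls, 1 member was left without sedentary replicate 3 or exercised replicate 1, and none with the tissue scores. Eya4, a transcriptional cofactor of the eyes absent family, was at 9.08, 8.80 and 8.72 before and at 9.60, 9.83 and 9.69 after the run (0.84 ± 0.10, adjusted p = 7.21e-04). Myog, the differentiation factor myogenin, rose by 1.12 ± 0.24 (adjusted p = 0.0243) and lost the call in 4 of the 6 fits, those without sedentary replicates 2 or 3 or exercised replicates 1 or 2 (adjusted p from 0.0701 to 0.0956). The satellite cell markers Pax7 and Myf5 lay at 6.10 to 6.28 and 5.83 to 6.13 before and at 5.99 to 6.25 and 6.13 to 6.22 after.

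In a list of hypoxia and angiogenesis genes 5 of 28 tested members rose, with a median of 0.07. The 5 became 3 without sedentary replicate 1, sedentary replicate 2 or exercised replicate 1, and 2 with the tissue scores. Vegfa, the main endothelial growth factor, was at 9.87, 9.71 and 9.57 before and at 10.82, 10.60 and 10.32 after the run (0.86 ± 0.13, adjusted p = 0.00230). The antiangiogenic matrix protein Thbs1 was at 7.89, 7.07 and 7.27 before and at 9.34, 9.80 and 8.74 after (1.88 ± 0.30, adjusted p = 0.00414), and the matricellular Ccn1 rose by 1.56 ± 0.27 (adjusted p = 0.00736). The groups overlapped for none of the 3. Exercised replicate 2, with the lowest endothelial mean, had the highest Thbs1 and the lowest Ccn1 value, and the part of cell composition in these values was not tested.

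Of 22 tested myokines and cytokines 1 was called (median 0.05). That gene was Musk, which is a receptor kinase that organises the neuromuscular synapse rather than a secreted factor. It also stands in a list of acetylcholine receptor and synapse genes, where 2 of 16 tested members rose, Musk and Dok7. Musk was at 9.02, 9.14 and 9.14 before and at 9.90, 9.86 and 9.91 after the run (0.79 ± 0.07, adjusted p = 1.10e-04). Il6, the best known exercise-induced cytokine, was below the limit for testing, with values of 2.85 to 3.28 before and 2.90 to 3.33 after. A list of IL-6, STAT3 and C/EBP genes holds pathway members as well as targets. Of its 19 tested members 7 rose, with a median of 0.53. Socs3, the feedback inhibitor of IL-6 family receptors, was at 6.38, 6.40 and 6.53 before and at 7.55, 7.70 and 7.04 after (0.99 ± 0.18, adjusted p = 0.0119). Cebpb rose by 1.01 ± 0.21 (adjusted p = 0.0236) and the oncostatin M receptor Osmr by 0.74 ± 0.15 (adjusted p = 0.0157). Each lost its call in part of the fits without 1 wild-type array. Socs3 lost it without exercised replicate 1 (adjusted p = 0.0537), Osmr without sedentary replicate 2 or exercised replicate 1, and Cebpb without sedentary replicates 1 or 3 or exercised replicate 2. The count of 7 was 3 without sedentary replicate 1, sedentary replicate 3 or exercised replicate 1, and 0 with the tissue scores.

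Of 25 tested chemokine and acute inflammation genes 4 rose, with a median of 0.15, and none of 16 interferon response genes was called (median -0.10). The 4 became 2 without sedentary replicates 2 or 3 or exercised replicates 1 or 2, and also with the tissue scores. Ccl6, a chemokine of myeloid cells, was at 6.68, 6.31 and 6.24 before and at 8.53, 8.31 and 7.50 after the run (1.70 ± 0.22, adjusted p = 0.00104). Lcn2, lipocalin 2, was at 6.05, 5.52 and 6.06 before and at 6.98, 7.42 and 6.94 after (1.24 ± 0.16, adjusted p = 9.30e-04). Neither overlapped, and Lcn2 was highest on exercised replicate 2, the array with raised neutrophil transcripts. The macrophage markers Adgre1 and Csf1r lay at 5.76 to 5.82 and 7.79 to 8.06 before and at 5.43 to 5.82 and 7.31 to 7.57 after. The mean of 6 macrophage markers was 7.30 to 7.67 before and 7.15 to 7.35 after, with none called.

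Targets of the glucocorticoid receptor had the highest median of the lists, whose members were chosen with earlier results known. Of 28 tested members 9 rose and none fell, with a median of 0.58, against 2.22% of all tested genes called higher. Zbtb16, a strongly glucocorticoid-induced zinc finger factor, was at 9.06, 8.70 and 8.93 before and at 10.28, 10.36 and 10.36 after the run (1.44 ± 0.11, adjusted p = 2.08e-05). The chaperone Fkbp5 was at 6.57, 6.61 and 7.10 before and at 7.42, 7.71 and 7.52 after (0.79 ± 0.14, adjusted p = 0.00897). Glul, glutamine synthetase, rose by 0.72 ± 0.10 (adjusted p = 0.00225). The groups did not overlap for these 3. Other members of this list, Mt1, Mt2, Pdk4 and Lcn2, stand in other lists too. The count of 9 ran from 8 to 10 when 1 wild-type array was left out, and was 2 with the tissue scores.

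Among the tested genes of muscle atrophy and FOXO factors, the largest rise was at the ubiquitin ligase MuRF1. Trim63, its gene, was at 9.06, 9.06 and 9.37 before and at 10.78, 11.33 and 11.04 after the run, a rise of 3.70-fold (1.89 ± 0.27, adjusted p = 0.00194). Trim63 did not pass with the tissue scores (1.61, adjusted p = 0.178). Fbxo32, the gene of the partner ligase atrogin-1, was at 10.30, 10.02 and 10.41 before and at 10.59, 11.002 and 10.57 after, and did not pass (0.48 ± 0.23, adjusted p = 0.345). Both sets of arrays were separate, but the gap for Fbxo32 was under 0.2. Foxo1 rose by 0.90 ± 0.17 (adjusted p = 0.0107), with 0.18 at its second probeset. Of 21 tested atrophy genes 3 rose, with a median of 0.20, and none was called higher with the tissue scores. The activity of FOXO factors was not tested. Of 35 autophagy and lysosome genes 3 rose, among them Gabarapl1, which is lipidated on autophagosomes (0.87 ± 0.14, adjusted p = 0.00567), and Flcn, folliculin, a regulator of the TFE3 pathway (1.15 ± 0.11, adjusted p = 1.39e-04). Flcn was at 8.03, 7.98 and 7.90 before and at 9.07, 9.30 and 8.98 after. With the tissue scores none of the autophagy and lysosome genes was called higher. None of 31 proteasome subunits was called (median 0.06).

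Clock-controlled genes fell in 4 of 19 tested members and rose in 1, with a median of -0.21, the lowest of any list besides lipogenesis. Nfil3, a repressor that opposes the PAR bZIP factors, was at 6.69, 7.13 and 6.77 before and at 8.52, 8.68 and 8.82 after the run (1.81 ± 0.15, adjusted p = 5.98e-05). Dbp, a PAR bZIP activator, was at 10.41, 10.68 and 10.56 before and at 9.82, 10.10 and 9.66 after (-0.69 ± 0.15, adjusted p = 0.0303). Its relative Hlf fell by 0.50 (± 0.09, adjusted p = 0.0104), Per3 by 0.59 (± 0.13, adjusted p = 0.0243) and the repressor Nr1d1 (REV-ERBα) by 0.97 (± 0.23, adjusted p = 0.0408). The groups were separate for all 5. The calls of the 4 falls depended on single arrays. Their count was 0 without sedentary replicate 3, at most 2 without any other wild-type array, and 0 with the tissue scores. Nr1d1 and Per3 lost the call without any 1 of the 6 arrays. Their changes in these fits ran from -1.089 to -0.842 and from -0.625 to -0.528. The labels used here give no time of day, and its part in these values was not tested.

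The insulin receptor substrates rose. Irs2 was at 7.86, 7.65 and 8.24 before and at 9.52, 10.32 and 8.79 after the run (1.63 ± 0.36, adjusted p = 0.0294), and Irs1 was at 8.90, 8.92 and 8.30 before and at 9.43, 9.63 and 10.08 after (1.01 ± 0.22, adjusted p = 0.0298). The spread within the exercised group exceeded 0.6 for both. Irs2 lost the call in each fit without 1 wild-type array except that without exercised replicate 3, and Irs1 in those without sedentary replicates 2 or 3 or exercised replicates 2 or 3. Of 30 tested insulin and IGF signalling genes 3 rose and 2 fell, with a median of -0.01, and none rose without sedentary replicate 2 or exercised replicate 2. None fell without sedentary replicates 2 or 3 or exercised replicates 1 or 2, and none rose or fell with the tissue scores.

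The largest falls among the called genes were those of Elovl3 and Thrsp. Elovl3, a fatty acid elongase of brown fat, was at 5.97, 7.60 and 7.84 before and at 4.57, 4.53 and 4.90 after the run, a change of -2.47 ± 0.37 on the log2 scale (adjusted p = 0.00288). Its exercised values lay below the limit for testing of 5.32, so that it was tested through its sedentary arrays alone, and counted from that limit it was at least 3.52-fold lower. Thrsp (Spot 14), an activator of lipogenesis, was at 8.77, 9.39 and 10.23 before and at 7.25, 7.42 and 6.75 after, a fall of 5.01-fold (-2.33 ± 0.32, adjusted p = 0.00155). In both genes sedentary replicate 3 was highest. Insig1, which holds the sterol sensor in the endoplasmic reticulum, fell by 1.01 (± 0.16, adjusted p = 0.00352), and Srebf1, the lipogenic factor SREBP1, by 0.77 (± 0.14, adjusted p = 0.0104). Srebf1 lost the call without sedentary replicate 3 (adjusted p = 0.0517). Of 18 tested lipogenesis and sterol genes 3 fell and none rose, with a median of -0.48, against 1.21% of all genes called lower. The count was 7 without sedentary replicate 1 and 1 with the tissue scores.

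The enzymes of the same pathway moved far without passing. Fasn, fatty acid synthase, was at 8.36, 10.90 and 12.11 before and at 8.14, 8.55 and 8.35 after (-2.11 ± 0.86, adjusted p = 0.249), so that sedentary replicate 1 lay within the exercised range, and Fasn passed without that array (adjusted p = 0.0380). Acly, ATP citrate lyase, was at 7.52, 8.88 and 10.40 before and at 7.61, 7.12 and 7.56 after (-1.50 ± 0.52, adjusted p = 0.166), again with sedentary replicate 1 among the exercised values, and it too passed without that array (adjusted p = 0.00914). Ucp1 of brown fat, listed above, changed by -3.65 ± 1.44 (adjusted p = 0.231) and passed without it as well (adjusted p = 0.00697). The mean of 6 adipocyte markers was 7.39, 8.76 and 9.87 on the sedentary arrays and 8.53, 8.45 and 7.84 on the exercised arrays, and that of 6 brown fat markers, which include Elovl3, was 7.97, 9.75 and 9.68 against 7.98, 7.72 and 7.93. None of the adipocyte markers was called, and the part of fat tissue in the falls was not tested beyond the covariates. With the fat, liver and lymphocyte scores as covariates Elovl3 (-2.47, adjusted p = 0.0244) and Thrsp (-1.78, adjusted p = 0.0202) passed. Insig1 (-0.99, adjusted p = 0.0517) and Srebf1 (-0.64, adjusted p = 0.153) did not. The fat score includes Elovl3 itself, so that this fit cannot separate Elovl3 from the score. Without sedentary replicates 2 and 3 the change of Elovl3 was -1.30 and that of Thrsp -1.63.

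**Figure D3:**
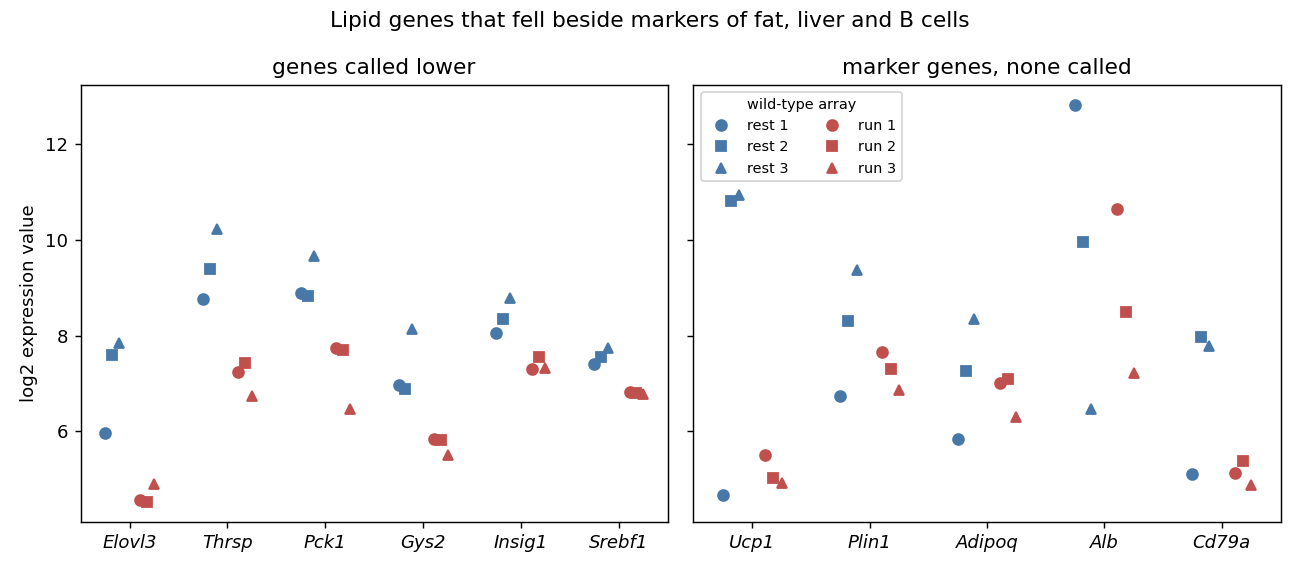
Log2 expression values on the 6 wild-type arrays of lipid genes called lower (left) and of markers of brown fat (Ucp1), adipocytes (Plin1, Adipoq), liver (Alb) and B cells (Cd79a), none of them called (right). Blue is rest and red is after the run, and the marker shape gives the replicate; sedentary replicate 3 is highest for each of the 6 lipid genes and for Ucp1, Plin1 and Adipoq.

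Some of the other genes that fell are known from liver and fat. Pck1, the gluconeogenic enzyme PEPCK, was at 8.90, 8.84 and 9.67 before and at 7.75, 7.70 and 6.48 after the run (-1.83 ± 0.43, adjusted p = 0.0407), and lost the call without any 1 of the 6 arrays (adjusted p from 0.0574 to 0.155). With the tissue scores as covariates its change was -0.60 (adjusted p = 0.689). Gys2, the glycogen synthase of liver and fat, was at 6.97, 6.88 and 8.15 before and at 5.83, 5.81 and 5.51 after (-1.61 ± 0.31, adjusted p = 0.0149), and lost it without exercised replicate 3 (adjusted p = 0.0545) and with the tissue scores (-1.31, adjusted p = 0.296). Another 3 were highest on sedentary replicate 1, the array with the highest Alb. They were Cyp4v3 (-1.32 ± 0.30), Ces1f (-1.28 ± 0.27), a carboxylesterase, and Fah (-1.18 ± 0.22), the last enzyme of tyrosine breakdown. Fah was at 7.96, 6.87 and 7.53 before and at 6.52, 6.27 and 6.03 after (adjusted p = 0.0107). Cyp4v3 lost the call in 4 of the 6 fits and Ces1f in 3, among them those without exercised replicates 2 or 3. With the tissue scores Cyp4v3 (-1.08, adjusted p = 0.352), Ces1f (-0.89, adjusted p = 0.437) and Fah (-0.98, adjusted p = 0.249) did not pass. On the 6 wild-type arrays alone they did not pass either (adjusted p = 0.139, 0.102 and 0.0801). Scarb1, the receptor of high density lipoprotein, was at 8.42, 8.40 and 8.47 before and at 7.55, 7.31 and 7.51 after (-0.98 ± 0.10, adjusted p = 1.42e-04), with sedentary arrays within 0.1 of each other. Acsf2, an acyl-CoA synthetase, fell by 0.98 (± 0.14, adjusted p = 0.00206).

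Receptors and a channel were among the other genes that fell. Acvr1b, a receptor of activin and myostatin signals (ALK4), was at 8.28, 8.37 and 8.44 before and at 7.39, 7.34 and 7.62 after the run (-0.92 ± 0.12, adjusted p = 9.08e-04). Trp53i11 was at 8.26, 8.74 and 8.84 before and at 7.41, 7.38 and 7.38 after (-1.23 ± 0.20, adjusted p = 0.00570). Ano1, a calcium-activated chloride channel, fell by 1.20 (± 0.21, adjusted p = 0.00941). Mc5r, a melanocortin receptor, fell by 1.11 (± 0.22, adjusted p = 0.0188) and lost the call without sedentary replicate 3 (adjusted p = 0.0777) or exercised replicate 1 (adjusted p = 0.0769).

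**Figure D4:**
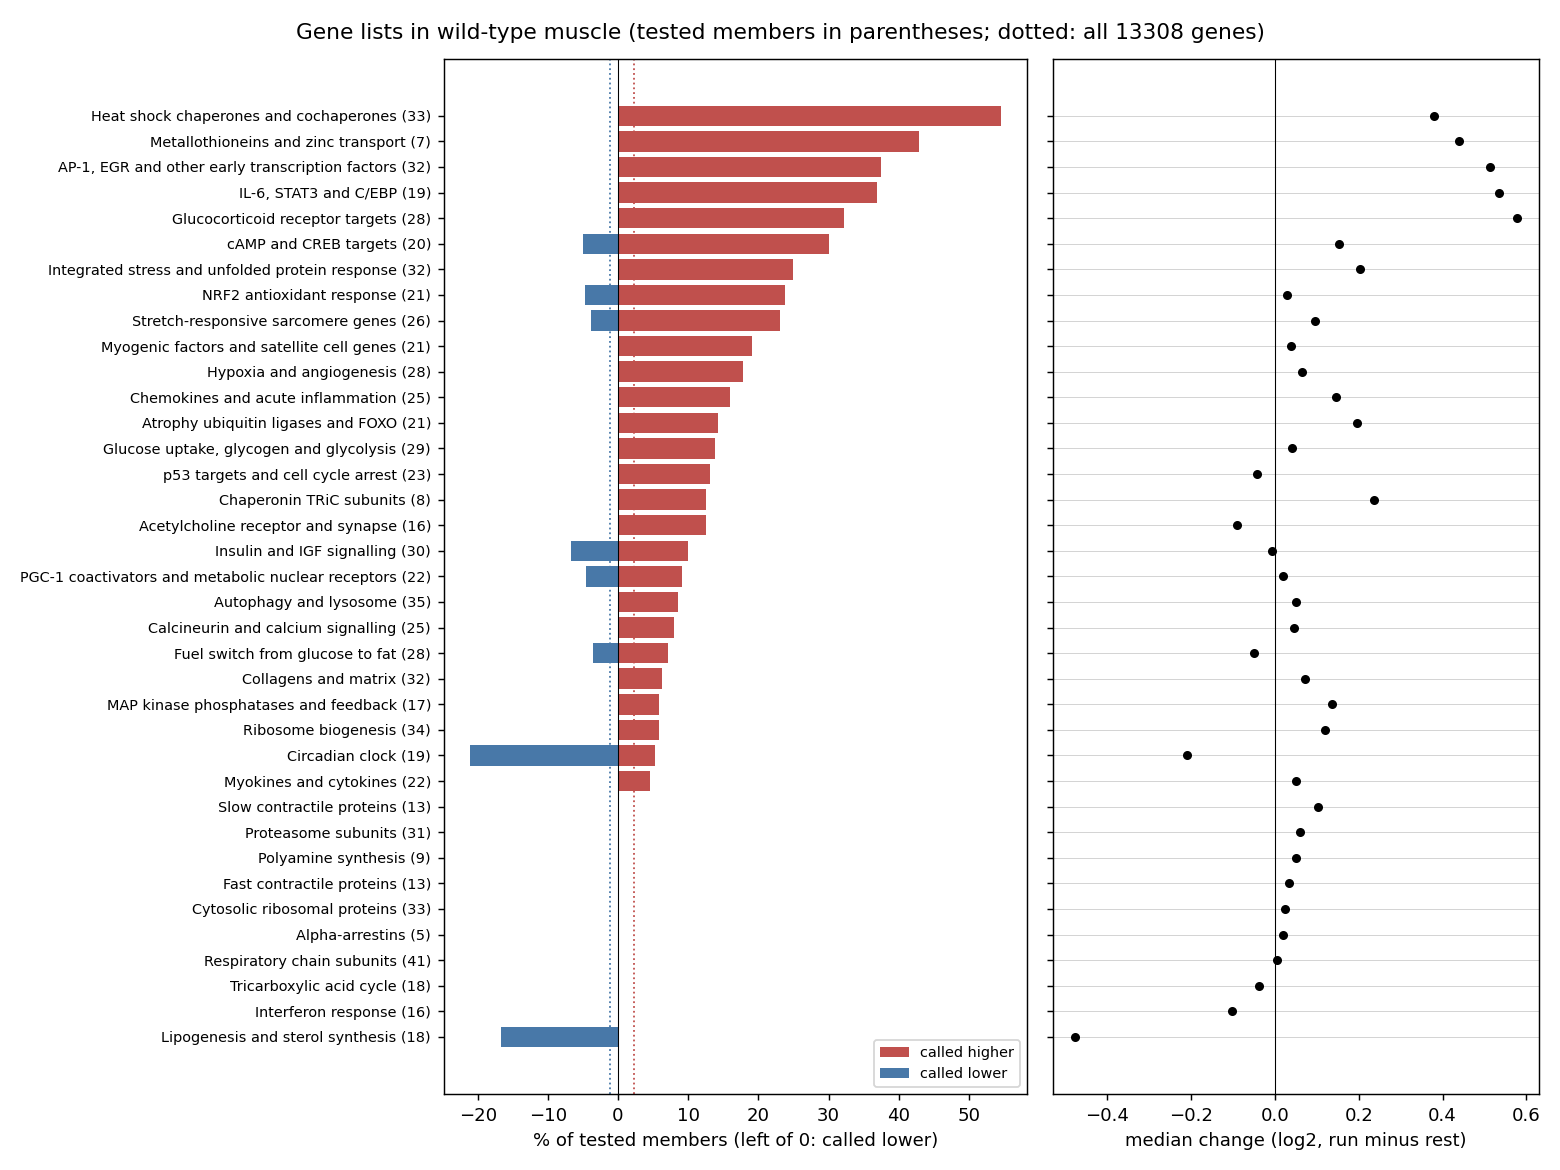
Share of tested members of 37 gene lists that were called higher (red, right) or lower (blue, left) after running, and median change of each list (log2), with the number of tested members in parentheses. Dotted lines mark the shares over all genes, 2.22% higher and 1.21% lower; heat shock chaperones lead with 18 of 33, and respiratory chain, tricarboxylic acid cycle, proteasome and contractile lists have none.

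ERRα-null muscle, which lacks a receptor that PGC-1α works with, was compared next, and the responses of the genotypes share no array. Sedentary ERRα-null replicate 1 held seminal vesicle RNA (Svs5 at 12.98, at most 4.49 elsewhere) and lymphocyte RNA (Cd79a at 8.95), and sedentary replicate 3 had Ucp1 at 9.43. Xist was at 7.82 and 7.83 on exercised ERRα-null replicates 2 and 3 and at most 4.09 on the other arrays of this genotype. With exercised wild-type replicate 3, all arrays with high Xist were exercised ones, so that sex was partly confounded with running and with the genotype difference. In this muscle 51 genes rose and 34 fell, which is 0.383% and 0.255% of those tested. The counts were 33 and 22 without sedentary replicate 1, 32 and 4 without sedentary replicate 3, 26 and 6 without exercised replicate 2 and 36 and 5 without exercised replicate 3 of this genotype. Of the 296 genes that rose in wild type, 283 had a positive change in ERRα-null muscle and 47 were called there, which is 15.9% of the wild-type list and 92.2% of the ERRα-null list. Of the 161 that fell, 156 had a negative change and 14 were called, which is 8.70% of the wild-type and 41.2% of the ERRα-null list. No gene was called in opposite directions. The median change in ERRα-null muscle was 0.35 over the genes that rose in wild type and -0.32 over those that fell, but a list chosen in one genotype shows larger values there by its choice. Over the 51 genes that rose in ERRα-null muscle the medians were 0.90 there and 1.05 in wild type, and over the 34 that fell -0.62 there and -0.35 in wild type.

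The difference of the responses was called for 1 of 13308 genes, which is 0.00751%, and 681 had an unadjusted p under 0.05. That gene was Pdk4, whose change was 1.47 in wild type and 0.21 in ERRα-null muscle, a difference of -1.26 ± 0.14 (95% interval -1.56 to -0.96, adjusted p = 0.0121). It was -1.21 (adjusted p = 0.0259) without sedentary ERRα-null replicate 1 and -1.32 (adjusted p = 0.0221) without sedentary ERRα-null replicate 3. In ERRα-null muscle Pdk4 was at 11.75, 11.66 and 11.52 at rest and at 12.08, 11.76 and 11.71 after the run, so that it began above the wild-type resting range and ended below the wild-type exercised range. The difference did not pass after quantile normalization (-1.16, adjusted p = 0.0583), without sedentary replicate 2 or exercised replicates 1 or 2 of wild type, without sedentary replicate 2 or exercised replicate 3 of ERRα-null muscle (adjusted p from 0.0517 to 0.0709), without sedentary replicates 2 and 3 of wild type (-1.24, adjusted p = 0.105), or when the 3 arrays with high Xist were left out (-1.09, adjusted p = 0.0645). Nr4a3 (-2.06 ± 0.31, adjusted p = 0.139), Hspa1a (-1.75 ± 0.30, adjusted p = 0.308), Sik1 (-1.94 ± 0.37, adjusted p = 0.329) and Ppargc1a (-0.91 ± 0.17, adjusted p = 0.329) had smaller changes in ERRα-null muscle and did not pass. Ankrd1 changed by 3.28 in wild type and 3.35 in ERRα-null muscle.

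**Figure D5:**
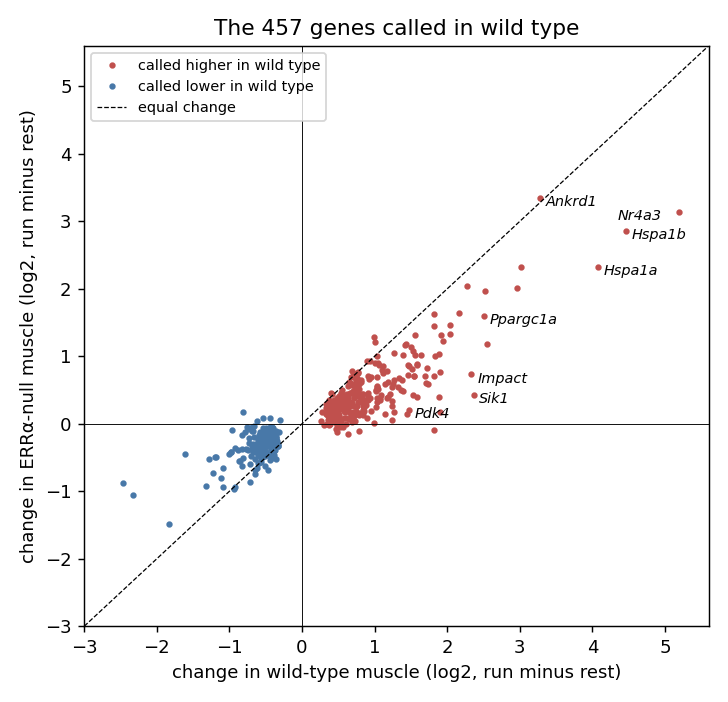
Change after running (log2, run minus rest) in ERRα-null against wild-type muscle for the 457 genes called in wild type, with a dashed line at equal change. The genes were chosen in wild type, and the medians in ERRα-null muscle are 0.35 and -0.32; Ankrd1 lies near the line and Pdk4 at 1.47 against 0.21.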

How the data were processed

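Gastrocnemius RNA of 12 mice was measured on Mouse Gene 2.0 ST arrays of Affymetrix. The deposited values are log2 expression values, made by the authors with Transcriptome Analysis Console, RMA and Expression Console, per the submitters' processing notes; the sources used here state no options, versions or genome build. RMA gives all arrays a common distribution, so that changes are relative to the bulk of transcripts and those of dim transcripts are compressed. Array medians ran from 5.17 to 5.23 in wild type, and pairs of wild-type arrays correlated at 0.971 to 0.983 across genes, with no identical pair. Arrays have no read depth; their number limits the precision.

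Groups came from titles. The platform table pairs 23521 of 41345 probesets with 1 symbol, 1814 with several and 16010 with none, and 23477 of the first matched RefSeq (GRCm38.p6) symbols. Probesets of 38 called genes with several disagreed in sign for 7. The 12 arrays entered 1 model of the 4 group means in limma 3.58.1 (R 4.3.3, 8 residual degrees of freedom, eBayes with an intensity trend, Benjamini-Hochberg adjustment, two-sided), after the lowest 40% of genes (under 5.32) were left out. On simulated arrays with 200 changed genes among 13308 it recovered 47.8% of log2 changes of 0.5, 92.2% of 1 and 98.8% of 2, with 3.4% false calls. The simulated noise was independent between genes and held no shared tissue material or sex difference, so that these shares do not carry over to the real arrays. The members and the 37 lists (847 genes on the array, 808 tested, 109 called higher and 13 lower) were chosen with earlier results of these data known, and lists are described without a test. Named genes are the called genes of largest change, at most 15 per direction, members of lists, Esrra, and genes called for the difference. The called genes Slc38a2, Pvr, Klhl40, Hbegf and Acvr1b stand outside this rule. They, other genes that did not pass and markers were named after their values were seen. Deviations of same-numbered wild-type arrays correlated at 0.269, 0.063 and 0.157, and those of different-numbered ones at -0.214 to 0.104. In ERRα-null muscle these were 0.041, -0.145 and -0.009 for the same number and -0.098 to 0.125 for different numbers. The labels name no pairing, and numbers were not taken as pairs. Alternatives changed the arrays, scaling, filter, variance model, probeset rule, block and tissue covariates.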

Additional observations from a re-analysis of the deposited data

Results flagged for a closer look

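The exercise response of Pdk4 differed between the genotypes by -1.26 (log2, ERRα-null minus wild type) in limma's test of the interaction (adjusted p = 0.0121). On 3 of 3 exercised wild-type arrays and on 3 of 3 sedentary wild-type arrays its level lay outside the ERRα-null range of the same state.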

How the results depend on the processing

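The counts of 296 higher and 161 lower became 176 and 56 on the 6 wild-type arrays alone, 57 and 11 with tissue scores as covariates, which leave fewer degrees of freedom, 172 and 58 without the 3 arrays of female profile, and 109 and 123 without sedentary wild-type replicates 2 and 3, which was added after the data were seen. With the replicate number as a block they were 283 and 159 over 12 arrays and 120 and 23 on the wild-type arrays. No filter gave 265 and 101. Median centring gave 289 and 88, so that the share of higher calls rose. Leaving out 1 wild-type array gave 183 to 275 higher and 37 to 126 lower; the lower count was most reduced without sedentary replicate 3 (37). The difference between genotypes, 1 gene, was 0 after quantile normalization and without sedentary wild-type replicates 2 and 3; with 1 array left out it ran from 0 to 6, and with the replicate block it was 1. The median change of all genes was -0.009, and 0.008 after median centring or quantile normalization. Esrra, not called, changed sign in 3 settings (0.014 without sedentary replicate 1, 0.02 without exercised replicate 3 and 0.02 without the arrays of female profile), ran from -0.092 to 0.02 with 1 wild-type array left out, and Ucp1, not called, was at 0.489 without sedentary replicates 2 and 3. The causes were not tested.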
